A study of Mus musculus with 12 samples.

Results

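Nitric oxide (NO) synthase and arginine metabolism were followed in M1-activated bone marrow-derived macrophages (BM-Mɸs) through 7 genes chosen by symbol: Nos2, Gch1, Ddah2, Ass1, Asl, Slc7a2 and Odc1. All 7 were among the 22243 genes measured, as 9 of 28808 listed transcripts, and 6 of the 7 had a mean of at least 1 TPM (transcripts counted per length and scaled to a fixed total in each library) and could enter the test across genes. RNA sequencing covered 12 libraries, 6 labelled ErbB4myeKO (LysMCre/ErbB4-floxxed, in which Cre expressed from the lysozyme M locus recombines floxed Erbb4 in myeloid cells) and 6 labelled ErbB4FF (ErbB4-floxxed without Cre), 1 of each genotype from every one of 6 litters. All mice had a C57Bl/6 background and all carried the floxed allele. Age and sex are absent from the labels, and the study's methods give an age only for C57Bl/6 mice that were purchased. Every culture, of either genotype, was grown in CMG14-12 conditioned medium, a source of M-CSF, and received IFN-γ at 100 U/mL for 16 h and then LPS at 100 ng/mL for 6 h. No unstimulated culture was analysed here, so no value below describes an induction by IFN-γ and LPS. In bulk RNA, fewer cells of a type and less RNA per cell cannot be told apart.

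As background, M1-type stimulation of mouse macrophages is known for switching on Nos2, the inducible NO synthase, which turns arginine into NO and citrulline. The enzyme needs tetrahydrobiopterin, whose synthesis starts with Gch1, and arginine, which enters through Slc7a2 or is rebuilt from citrulline by Ass1 and Asl. Arginine is also a source of ornithine, from which Odc1 makes the polyamine putrescine, and Ddah2 belongs to the family of enzymes that clear methylated arginines, which block NO synthases.

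The labels were checked first on Erbb4 and Lyz2. Erbb4 was below 1 TPM in all 12 libraries and ranged from 0.280 to 0.852 TPM in those labelled ErbB4myeKO and from 0.372 to 0.716 TPM in those labelled ErbB4FF, a value over the whole listed transcript that does not read the floxed exon separately and so does not check the deletion. It was higher in the library labelled ErbB4myeKO in 4 of 6 litters, with an exact permutation p of 0.25. Lyz2, the gene that carries the Cre insertion, was lower in the library labelled ErbB4myeKO in 5 of 6 litters and higher in litter 6, where the log2 ratio was 1.43. In litter 6 Lyz2 thus did not bear out the labels, and whether they were exchanged there was not tested. All labels were kept, and results are also given without litter 6. The 8 macrophage markers were all present and summed to between 7179 and 15964 TPM, a sum that includes Lyz2 and, like it, was lower in ErbB4myeKO in litters 1 to 5 and higher in litter 6, whereas 8 lymphocyte markers reached at most 2.54 TPM and 6 erythroid markers at most 0.981 TPM. The 12 neutrophil markers, of which Retnlg was at 0 in every library, summed to 41.3 to 375 TPM in libraries labelled ErbB4myeKO, with the highest sum in litter 6, and to 42.5 to 186 TPM in those labelled ErbB4FF, and their part in the results was not tested. Between 59.0% and 74.7% of each library's TPM lay in the listed transcripts, and read depth was not among the values used here.

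None of the 7 genes passed the test for a difference between genotypes. When limma was fitted to log2(TPM + 0.5) with a term for litter, and p-values were adjusted by Benjamini-Hochberg across 8780 genes, 0 of the 6 tested members and 0 of 8780 genes (0%) had an adjusted p under 0.05, and the smallest adjusted p of any gene was 0.603. At an unadjusted p under 0.05, 1 of the 6 members (Slc7a2) stood against 721 of 8780 genes (8.21%), of which 336 were higher and 385 lower in ErbB4myeKO. The median log2 difference was -0.0085 over the 6 members and -0.000679 over all genes tested. On the scale of levels, which TPM gives per transcript length, Ass1 was highest with a mean of 186 TPM over the 12 libraries, followed by Odc1 (107 TPM), Gch1 (53.6 TPM), Nos2 (30.9 TPM, with 3 libraries listed at 0), Asl (4.11 TPM), Slc7a2 (3.52 TPM) and Ddah2 (0.336 TPM). By the median Nos2, at 3.30 TPM, lay below Asl (4.15 TPM) and Slc7a2 (3.67 TPM). These are values of listed transcripts. Other forms of Nos2 and Slc7a2 are not listed, so the order is not one of gene totals. In the order of means the ranges overlapped in all 6 pairs of neighbours.

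**Figure D1:**
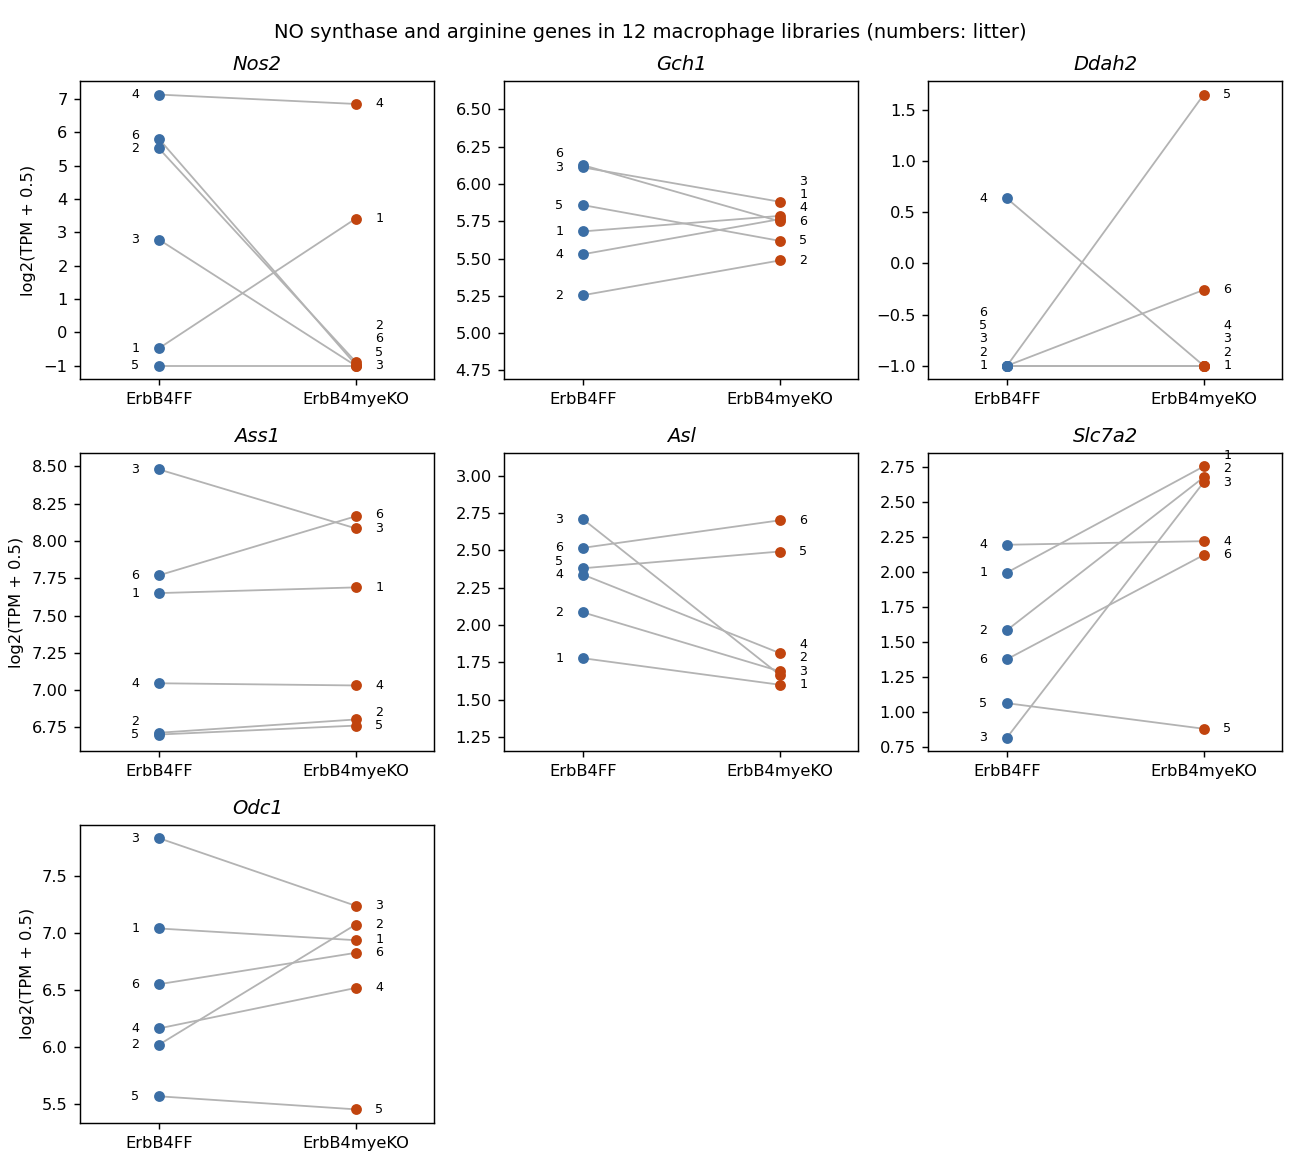
Level of each gene as log2(TPM + 0.5) (vertical axis, scaled separately in each panel) in the 6 ErbB4FF libraries (blue) and the 6 ErbB4myeKO libraries (orange); lines join littermates and the numbers are litters. Nos2 spans from 0 to 139 TPM, Gch1 stays between 37.7 and 69.4 TPM, and the ranges of both genotypes overlap in all 7 panels.

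Nos2 (ENSMUSG00000020826, chr11:78920787-78960254, plus strand, GRCm38) varied far more between libraries, on the log2 scale, than any other tested member. From litter 1 to litter 6, the libraries labelled ErbB4myeKO had listed values of 10.1, 0.0417, 0, 115, 0 and 0.0109 TPM. Their ErbB4FF littermates had values of 0.220, 45.2, 6.37, 139, 0 and 55.1 TPM. Thus 6 of the 12 libraries were below 1 TPM, 4 of them labelled ErbB4myeKO and 2 labelled ErbB4FF, litter 4 was high in both genotypes, and litter 5 was at 0 in both. Nos2 was lower in ErbB4myeKO in 4 litters, higher in litter 1 and tied in litter 5. The limma log2 difference was -2.22 ± 1.38 (SE), with a 95% confidence interval from -5.45 to 1.00 (adjusted p = 0.653), and an exact permutation test, which exchanges the genotypes of littermates in all 64 ways and is two-sided, gave p = 0.25. The interval reaches from a 0.0229-fold to a 2.0-fold level in ErbB4myeKO. Without litter 1 the log2 difference was -3.44, at an unadjusted limma p of 0.02 (adjusted p = 0.6001), and without litter 6 it was -1.31. With a covariate from Y-linked genes it was -0.42, at an unadjusted limma p of 0.795. That covariate lay almost wholly along the litters, for which the model already held a term. Here and below it therefore adds no adjustment for sex.

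The spread of Nos2 stood out among all genes. Its SD within genotype was 3.38 on the log2 scale, against a median of 0.463 over the 8780 genes tested, and only 2 genes had a larger one. The SDs of the other 5 tested members lay between 0.261 (Gch1) and 0.732 (Odc1).

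**Figure D2:**
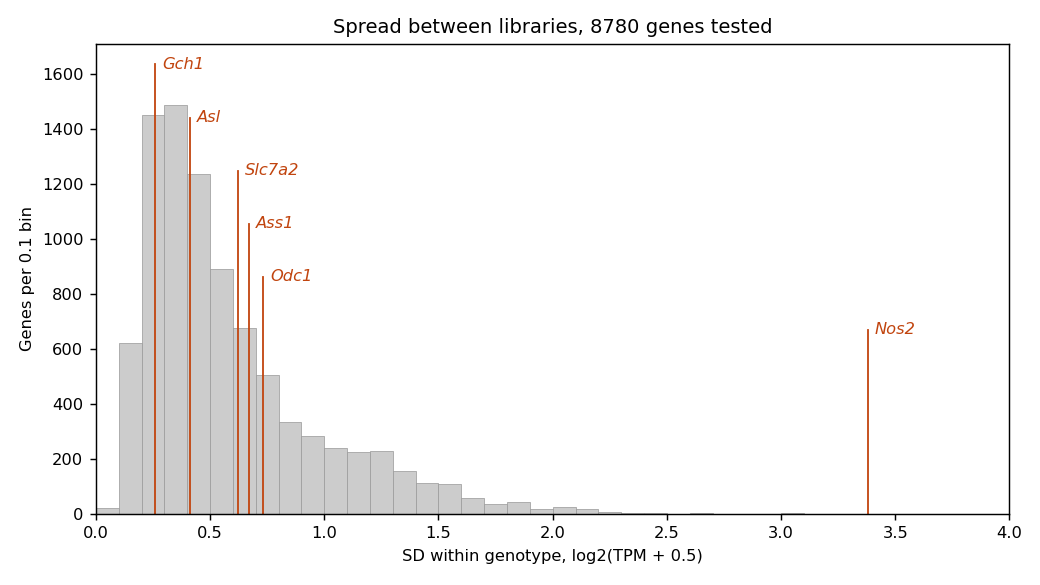
Number of genes (vertical axis) by their SD within genotype of log2(TPM + 0.5) (horizontal axis, bins of 0.1) for the 8780 genes tested, with the 6 tested members as orange lines whose height carries no value. Nos2 at 3.38 lies far to the right of the other 5 members, which lie between 0.261 and 0.732.

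What the Nos2 value counts is limited by the transcript it comes from. The table holds 1 Nos2 transcript, ENSMUST00000214397, of 3429 bases and 26 exons, with 3096 coding bases. A longer Nos2 transcript of GENCODE M21, ENSMUST00000018610, of 4192 bases and 27 exons, has no row in the table. Its 3435 coding bases begin 339 bases (113 codons) earlier and then hold the whole coding sequence of the listed transcript. The first 30 coding bases of each are shown because the transcripts differ in where the coding sequence starts, with the start codon in capitals, at chr11:78922268 in exon 2 and chr11:78931619 in exon 4 of the respective transcript.
ENSMUST00000018610: ATGgcttgcccctggaagtttctcttcaaa
ENSMUST00000214397: ATGaaccccaagagtttgaccagaggaccc
The listed transcript shared 97.0% of its 31-base words with the unlisted one, and 101 words of its 3399 were found in no other transcript. The row is therefore not a total over the gene, and the part that the division of reads between the 2 transcripts had in the values above was not tested.

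The 3 tested genes whose pattern over the 12 libraries was most like that of Nos2, each library set against the mean of its genotype, were Bahd1 (Pearson r = 0.867), Mmp14 (r = 0.863) and Rreb1 (r = 0.856). They were present in every library, Bahd1 from 33.6 to 57.9 TPM, Mmp14, a membrane-anchored matrix metalloproteinase, from 268 to 628 TPM, and Rreb1 from 3.80 to 9.07 TPM. The 12 points hold 6 pairs of littermates and are not independent, and these genes were picked as the highest of 8780.

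Gch1 (ENSMUSG00000037580, chr14:47153895-47189413, minus strand), which catalyses the first step towards tetrahydrobiopterin, was among the steadier genes. The lowest, median and highest values were 44.4, 53.6 and 58.4 TPM in ErbB4myeKO. In ErbB4FF they were 37.7, 54.2 and 69.4 TPM. The ErbB4myeKO values lay entirely inside the range of the ErbB4FF values, and 3 of 6 litters were higher in ErbB4myeKO. On the log2 scale, ErbB4myeKO minus ErbB4FF was -0.05 ± 0.10 (SE), with a 95% interval from -0.29 to 0.19 (limma adjusted p = 0.899), that is between 0.820-fold and 1.14-fold. Of all genes tested, 83.1% had a larger SD within genotype, and nearly all of the listed transcript (99.9% of its 31-base words) was found in no other transcript.

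Ddah2 (ENSMUSG00000007039, chr17:35059035-35062095, plus strand) was listed at 0 in 9 of 12 libraries and was too low to be tested across genes. The values above 0 were 2.64 and 0.336 TPM in the ErbB4myeKO libraries of litters 5 and 6 and 1.05 TPM in the ErbB4FF library of litter 4. No litter had it above 0 in both genotypes. The exact permutation p was 0.75, and the listed transcript shared 93.0% of its 31-base words with other transcripts of the gene.

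Ass1 (ENSMUSG00000076441, chr2:31470207-31520672, plus strand), argininosuccinate synthase, joins citrulline and aspartate and was the most abundant member. In ErbB4myeKO the lowest, median and highest values were 108, 168 and 287 TPM. In ErbB4FF they were 104, 166 and 357 TPM. The ranges overlapped, with the highest value in ErbB4FF, and litters 3 and 6 were high while litters 2 and 5 were low in both genotypes. The log2 difference was 0.03 ± 0.10 (SE), with a 95% interval from -0.20 to 0.25 (limma adjusted p = 0.934), or 0.874-fold to 1.19-fold. A share of 61.5% of the 31-base words of the transcript also occurs in Gm5424, a processed pseudogene on chr10:62071123-62072362, so reads from the 2 could have been divided, and the value is uncertain to that extent.

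Asl (ENSMUSG00000025533, chr5:130011258-130029247, minus strand), argininosuccinate lyase, completes the return of citrulline to arginine. In ErbB4myeKO the lowest, median and highest values were 2.53, 2.87 and 6.01 TPM. In ErbB4FF they were 2.93, 4.63 and 6.04 TPM. Asl was lower in ErbB4myeKO in litters 1 to 4 and higher in litters 5 and 6, and the ranges overlapped. The estimated log2 difference was -0.31 ± 0.18 (SE), with a 95% interval from -0.72 to 0.11 (limma adjusted p = 0.641), and the exact permutation p was 0.188. Without litter 3, or with the highest transcript alone, the difference was -0.16.

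The Asl total came from 2 of the 3 listed transcripts. ENSMUST00000160129 was at 0 in every library. ENSMUST00000161094 was listed at 0 in 3 libraries, the ErbB4FF library of litter 1 and the ErbB4myeKO libraries of litters 2 and 3. Its share of the total was highest in litter 5, with 90.5% in ErbB4FF and 65.5% in ErbB4myeKO. All 3 transcripts have 1395 coding bases, and ENSMUST00000161094 shares 86.8% of its 31-base words with other transcripts of the gene, so that the split is less certain than the total.

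**Figure D3:**
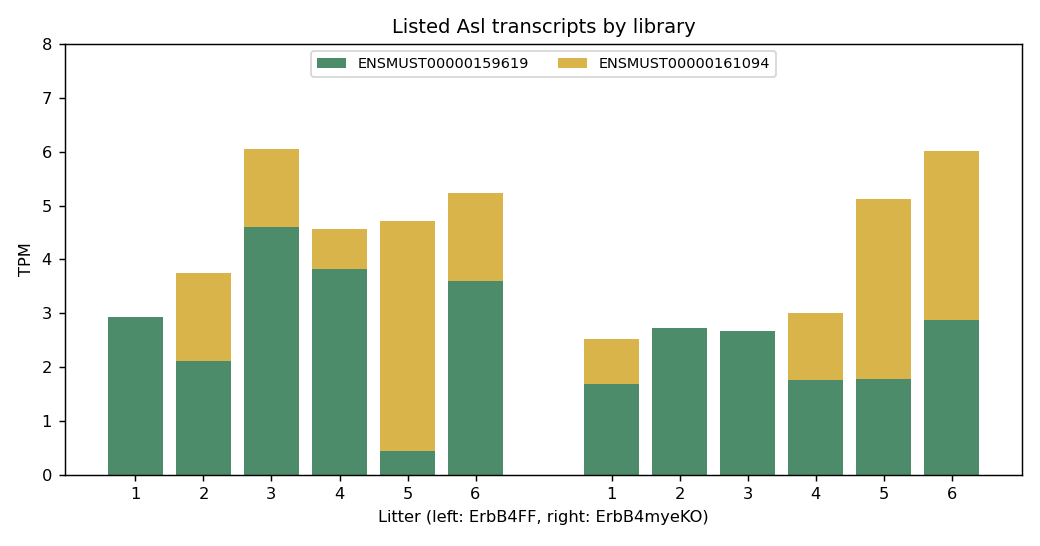
TPM (vertical axis, from 0) of the listed Asl transcripts in the 6 ErbB4FF libraries (left) and the 6 ErbB4myeKO libraries (right) by litter, stacked. ENSMUST00000161094 (yellow) makes up 90.5% and 65.5% of the total in litter 5 and is listed at 0 in 3 other libraries.

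Slc7a2 (ENSMUSG00000031596, chr8:40862396-40922308, plus strand), a cationic amino acid transporter through which macrophages take up arginine, was the member with the smallest p. In ErbB4myeKO it was at 6.24, 5.89, 5.73, 4.16, 1.34 and 3.85 TPM in litters 1 to 6. In ErbB4FF it was at 3.49, 2.50, 1.27, 4.08, 1.59 and 2.10 TPM. It was higher in ErbB4myeKO in 5 of 6 litters, by the most in litter 3 and by little in litter 4, and lower in litter 5, and the ranges overlapped. The log2 difference was 0.71 ± 0.26 (SE), with a 95% interval from 0.10 to 1.32, or 1.63-fold (1.07-fold to 2.50-fold). The limma p was 0.0286 before and 0.603 after adjustment, and the exact permutation p was 0.0938, so the difference did not pass the test. Leaving out litters in turn moved the log2 difference between 0.49 and 0.89, and the unadjusted limma p rose above 0.05 without litter 1, 2, 3 or 6, to 0.0756 at most.

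The Slc7a2 row is again 1 transcript of several. ENSMUST00000057784, the listed one, shares 93.1% of its 31-base words with ENSMUST00000117077, which has no row. Among their differences is an alternative coding exon, the kind of exchange known to separate low- and high-affinity forms of this transporter, of 137 bases at chr8:40908398-40908534 in the listed transcript and of 140 bases at chr8:40908056-40908195 in the other. The exons are shown in capitals between 15 bases of each neighbouring exon.
ENSMUST00000057784: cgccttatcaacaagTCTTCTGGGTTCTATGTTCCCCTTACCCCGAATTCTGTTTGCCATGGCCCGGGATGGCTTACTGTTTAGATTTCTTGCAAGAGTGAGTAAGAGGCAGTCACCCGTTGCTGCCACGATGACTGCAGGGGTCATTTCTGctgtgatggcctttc
ENSMUST00000117077: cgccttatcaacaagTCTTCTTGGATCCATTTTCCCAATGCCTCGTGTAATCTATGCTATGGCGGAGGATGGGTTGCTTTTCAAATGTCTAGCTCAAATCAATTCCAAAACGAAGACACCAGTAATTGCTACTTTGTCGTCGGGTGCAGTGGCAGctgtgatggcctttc
In a global alignment 84 of 137 aligned bases (61.3%) were identical. Of the 7880 words of the listed transcript 189 were found in no other transcript, so its values depend on how reads were divided between forms, and their part in the values was not tested.

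Odc1 (ENSMUSG00000011179, chr12:17544794-17551505, plus strand), ornithine decarboxylase, the first enzyme of polyamine synthesis, was the second most abundant member. In ErbB4myeKO the lowest, median and highest values were 43.3, 117 and 150.2 TPM. In ErbB4FF they were 46.9, 82.1 and 227 TPM. Litter 3 was highest and litter 5 lowest in both genotypes, and 3 of 6 litters were higher in ErbB4myeKO. The log2 difference was 0.15 ± 0.19 (SE), with a 95% interval from -0.30 to 0.59 (limma adjusted p = 0.824), and without litter 2 it was -0.04. Of the 31-base words of the transcript, 52.0% also occur in other genes on the same strand and 19.0% on the reverse strand. Gm7993 alone held 32.2%, counted over both strands. Other transcripts of Odc1 shared 88.1%, and 11.9% were found in no other transcript, which leaves the division of reads uncertain.

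**Figure D4:**
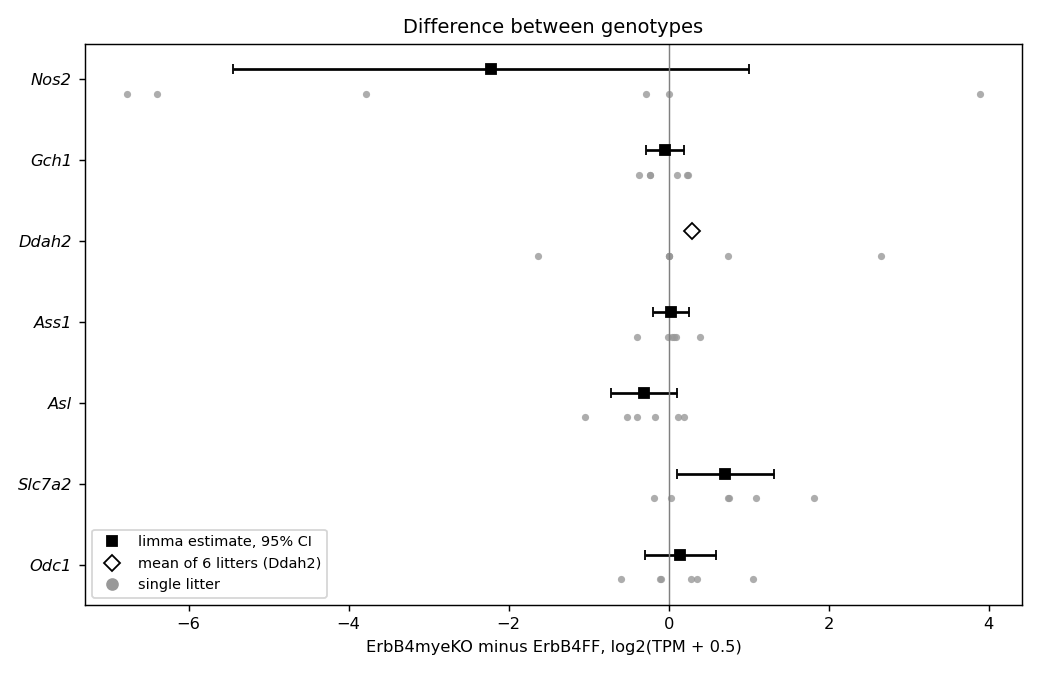
Difference between ErbB4myeKO and ErbB4FF in log2(TPM + 0.5) (horizontal axis) for each gene. Black squares with bars are limma estimates with 95% confidence intervals, the open diamond is the mean over 6 litters for Ddah2, which was below the filter, and grey points are single litters. Only the interval of Slc7a2, from 0.10 to 1.32, leaves out 0 before adjustment, and that of Nos2 is the widest.

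Without litter 6, in which Lyz2 ran against the other litters, 0 of the 6 tested members passed an adjusted p of 0.05 over 8693 genes and 0 had an unadjusted limma p under 0.05. The log2 difference of Slc7a2 was then 0.70 ± 0.31 (SE). Its limma p was 0.0606 before and 0.767 after adjustment. Asl was at -0.41 ± 0.19, at the same adjusted p of 0.767. Ass1 (-0.04 ± 0.09) and Gch1 (0.02 ± 0.10) changed sign around 0, and Odc1 was at 0.12 ± 0.22.

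The members were also compared between litters. In an F test over the litter terms of the same limma model, chosen after the values had been seen, 2 of the 6 tested members passed an adjusted p of 0.05, Ass1 (0.00145) and Odc1 (0.0196). Among all genes tested 3938 of 8780 (44.9%) did, against 33.3% of the tested members. Between the highest and the lowest litter mean lay 1.55 log2 units for Ass1 (litters 3 and 5) and 2.02 for Odc1 (litters 3 and 5), each more than the largest difference between littermates, which was 0.40 for Ass1 and 1.05 for Odc1. Without litter 5, 1002 of 8710 genes passed and Ass1 alone of the members (adjusted p = 0.0216), with Odc1 at 0.175. Odc1 also missed the threshold with a covariate from Y-linked genes (adjusted p = 0.108) and without the filter on low values (0.0514). The listed transcripts held 71.4% and 74.7% of the TPM in litter 5, more than in any other library. Each litter had its own batch letter in the labels, so litter and batch cannot be told apart. The summed TPM of 4 Y-linked genes lay between 36.1 and 49.2 in both libraries of litters 1 to 4 and at most at 0.406 in litters 5 and 6, so this too moved with litter and its part was not tested.

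Other genes of the pathway, a list of 67 chosen with earlier results of these data known, likewise held none that passed. Of these 42 were tested, 0 had an adjusted limma p under 0.05, and 3 had an unadjusted p under 0.05, which is 7.14% against the 8.21% of all genes. Their median log2 difference was 0.01, with 23 higher and 19 lower in ErbB4myeKO. The 3 were Slc7a1, Pts and Smox. Values of all genes of the list come from listed transcripts alone, and words shared with other transcripts were counted for the members only.

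Pts, which follows Gch1 in tetrahydrobiopterin synthesis, had the highest mean, 9.31 TPM, of the 7 other genes listed for synthesis and recycling of this cofactor. It was lower in ErbB4myeKO in 6 of 6 litters, at 8.59 ± 5.47 TPM against 10.04 ± 5.57 TPM (SD, n = 6). The estimated log2 difference was -0.26 ± 0.10 (SE), with a limma p of 0.0385 before and 0.603 after adjustment. The exact permutation p of 0.0313 is the smallest that 6 litters can give. With a covariate from Y-linked genes the log2 difference was -0.15, at an unadjusted limma p of 0.292. The unadjusted limma p was 0.659 without the litter block and above 0.05 without litter 2, 3, 4 or 6. Of the 3 tested genes of this subgroup 1 was higher and 2 were lower.

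Among other NO synthases and their binding proteins, Nos1 was at most at 0.0597 TPM in any library and Nos3 was listed at 0 in all 12. Dynll1, a dynein light chain that also binds the neuronal NO synthase, was the highest of this group at 66.2 TPM. Its log2 difference was -0.09 ± 0.11 (SE), and lay between -0.19 (without litter 2) and -0.012 (without litter 4) with a litter left out. Nosip, an NO synthase-interacting protein, was at -0.13 ± 0.12 (limma adjusted p = 0.748), at -0.21 without litter 5 and at -0.027 without litter 3.

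Among transporters, Slc7a1, the widely expressed cationic amino acid transporter, was at 4.47 ± 2.33 TPM in ErbB4myeKO and 3.46 ± 2.73 TPM in ErbB4FF (SD, n = 6). It was higher in ErbB4myeKO in 5 of 6 litters. The log2 difference was 0.44 ± 0.18 (SE), with a limma p of 0.0436 before and 0.603 after adjustment. It was 0.29 without litter 2 and 0.28 with a covariate from Y-linked genes, at unadjusted limma p of 0.110 and 0.273. That p was 0.324 without the litter block and also above 0.05 without litter 4 or 6, and the exact permutation p was 0.0625. Slc3a2, the shared heavy chain of several amino acid transporters, was the most abundant of the group at 130 TPM and differed by 0.13 ± 0.22. The log2 differences of the 4 tested transporters other than Slc7a2 had a median of 0.27, with 3 of the 4 higher in ErbB4myeKO.

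Among polyamine and ornithine genes, Smox, spermine oxidase, was at 9.42 ± 4.51 TPM in ErbB4myeKO and 14.3 ± 7.82 TPM in ErbB4FF (SD, n = 6), and lower in ErbB4myeKO in 4 of 6 litters. On the log2 scale, ErbB4myeKO minus ErbB4FF was -0.61 ± 0.25 (SE), with a limma p of 0.0415 before and 0.603 after adjustment. The exact permutation p was 0.125. The difference was -0.92 with a covariate from Y-linked genes and -0.41 without litter 3. The unadjusted limma p was 0.205 without the litter block and above 0.05 without litter 1, 3 or 5. Eif5a, the translation factor that carries the spermidine-derived hypusine, was the most abundant gene of the whole list at 705 TPM and differed by 0.01 ± 0.07. Oat, which turns ornithine towards proline and glutamate, was at 36.8 TPM and differed by 0.02 ± 0.08, and Pycrl of proline synthesis by 0.16 ± 0.13. Pycrl lay between 0.098 (without litter 5) and 0.25 (without litter 1) with a litter left out, and at 0.074 with the Y-linked covariate. Oaz1, an antizyme that marks ornithine decarboxylase for breakdown, spread from 0.339 TPM, in the ErbB4myeKO library of litter 3, to 111 TPM. Its log2 difference of -1.13 ± 0.97 was 0.03 without litter 3. Oaz2 differed by -0.27 ± 0.18, or by -0.12 without litter 2.

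In the remaining subgroups no gene had an unadjusted limma p under 0.05. Prmt2 was the most abundant of the methylarginine genes at 14.7 TPM, with a log2 difference of -0.31 ± 0.20 (SE) that was -0.11 without litter 3. Prmt1, the main enzyme that forms asymmetric dimethylarginine, was at 0.46 ± 0.22 (adjusted p = 0.603) and higher in 5 of 6 litters. Of the urea cycle group, Cps1, Otc and Nags were at most at 0.149 TPM in any library. The mitochondrial carriers Slc25a13 and Slc25a15 differed by 0.16 ± 0.19 and 0.15 ± 0.17. With a litter left out Slc25a13 lay between 0.044 (litter 2) and 0.32 (litter 1), and Slc25a15 between 0.062 (litter 2) and 0.21 (litter 3). Gatm, which uses arginine to start creatine synthesis, was at 40.4 TPM with a log2 difference of -0.22 ± 0.13. This lay between -0.32 (without litter 3) and -0.12 (without litter 2) with a litter left out. Adh5, which reduces S-nitrosoglutathione, was at 20.9 TPM with -0.08 ± 0.08. It lay between -0.14 (without litter 4) and -0.062 (without litter 3) with a litter left out, and at -0.17 with the Y-linked covariate.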

How the data were processed

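RNA of the 12 macrophage cultures was sequenced by the authors as single-end reads of 75 bp and pseudoaligned with kallisto to the mouse transcriptome, for which the submitters' processing notes name mm10. The kallisto version and the release of the transcriptome are not given in the sources used here. The authors deposited TPM for APPRIS principal transcripts alone, a mean of the natural log of estimated counts, and for each transcript the p-value and the q-value of their own genotype comparison, 2 columns that were not read.

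The 29213 lines held 28808 transcripts, as 405 lines repeat a transcript and were counted once. TPM were summed per gene. A filter on a mean of 1 TPM or more left 8780 genes. Their log2(TPM + 0.5) values entered lmFit and a trended eBayes step (limma 3.58.1, R 4.3.3), the model held genotype and a block for litter, and the adjustment was Benjamini-Hochberg. Fold changes are on the log2(TPM + 0.5) scale, which understates changes of low genes. Single values were tested by two-sided exact permutation over 64 within-litter swaps, whose smallest p is 0.0313. The limma fit was tested on simulated data. The study's design pairs littermates, and the correlation of littermates' deviations from their group means lay between 0.273 and 0.774. P-values for genotype measure how the difference between littermates varied over these litters. Depth is not known from TPM, so no interval for counting error is given.

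Groups came from the sample labels. Litters were taken from the number and batch letter in the labels, together with the study's statement that littermates were paired. Words of 31 bases were compared between the members and all GENCODE M21 transcripts (GRCm38), which also gave positions and sequences. The k-mer length that the authors used is not given in the sources used here. The members and gene lists were chosen with earlier results of these data known. Named genes were all members, Erbb4 and Lyz2, in each subgroup of the pathway list the gene with the highest mean and the one with the smallest p, and the 3 genes most like Nos2. Nos1, Nos3, Cps1, Otc, Nags and, among markers, Retnlg were named after their values were seen. Results on 2 further items are not reported here. Alternatives were fits without the litter block, with a covariate from Y-linked genes, other pseudocounts, filters, scalings and moderation, the highest transcript alone, and each litter left out. Summed markers not given elsewhere were 4.58 to 33.7 TPM for dendritic cells, 5.35 to 20.0 TPM for endothelial cells and 20.2 to 58.5 TPM for proliferation.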

Additional observations from a re-analysis of the deposited data

Results flagged for a closer look

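Within groups of 6, a library or litter far from the other 5 was found in 5 of 27 groups of values. Chance gives about 1 in 20 for normally distributed values, but the TPM were skewed and partly at 0, so the count was not set against chance. Nos2 was at 115 TPM in the ErbB4myeKO library of litter 4, with 10.1 TPM as the next highest. Ddah2 was at 2.64 TPM in the ErbB4myeKO library of litter 5 and at 1.05 TPM in the ErbB4FF library of litter 4, where the other 5 ErbB4FF libraries were listed at 0, a pattern that always stands out in this way. Erbb4 was at 0.716 TPM in the ErbB4FF library of litter 3. The log2 ratio of Lyz2 between littermates was 1.43 in litter 6 and negative in the other 5 litters. With all litters the Lyz2 difference was -0.59 (limma adjusted p = 0.641), and without litter 6 it was -0.99 (limma adjusted p = 0.0556).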

How the results depend on the processing

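No member and no other gene of the pathway list passed an adjusted p of 0.05 in any alternative, and over all genes 0 or, without litter 3, 1 gene passed. Genes at an unadjusted p under 0.05 fell from 721 to 75 without the replicate block and to 297 with the Y-linked covariate, and ranged from 413 to 864 with a litter left out (413 without litter 2, 458 without litter 4). The count of members at an unadjusted p under 0.05 was 0 without the block, with the covariate and with a filter of 5 TPM, under which Slc7a2 and Asl were not tested, and 0 to 1 with a litter left out (0 without litter 2, 3 or 6). Without litter 1 the 1 member was Nos2, as Slc7a2 had a p of 0.0611. For the other pathway genes that count was 0 without the block and 1 to 4 with a litter left out (1 without litter 2 or 6). The fit without the block changed no other call of a member.

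Genes that differed between litters numbered 728, with 1 member (Ass1), beside the covariate, which lay almost wholly along the litters, and 1002 to 4092, with 1 member (without litter 5) or 2, with a litter left out. Without the filter 1 member passed, as Odc1 had an adjusted p of 0.0514.

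Of 388 alternative log2 differences for 25 genes 375 kept their direction and call, and 13 reversed without passing an adjusted p of 0.05. With the covariate Ass1 was -0.052 and Odc1 -0.015. With 1 transcript per gene Slc25a13 was -0.20 and Prmt2 0.36, and with median-ratio scaling Eif5a was -0.00079. With a litter left out (lowest to highest) Ass1 was -0.045 (litter 6) to 0.11, Gch1 -0.10 to 0.020 (litter 6), Odc1 -0.036 (litter 2) to 0.29, Oat -0.040 (litter 2) to 0.059, Eif5a -0.046 (litter 2) to 0.050, Slc3a2 -0.0052 (litter 5) to 0.37, Ddah2 -0.18 (litter 5) to 0.68, and Oaz1 -1.58 to 0.026 (litter 3). Nos2 ranged from -3.44 (without litter 1, at an unadjusted limma p of 0.02) to -0.42 (covariate). The causes were not tested. Rescaling to equal totals, added after seeing the data, moved the median of all genes by 0.02.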
